A study of Mus musculus with 55 samples.

Results

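Chromatin held by the nuclear lamina was set against chromatin marked by H4K20me3 in a single condition, the liver of Setd8-LKO mice treated with TCPOBOP. The members were the 1153 Lamin A/C islands and the 2106 H4K20me3 islands that the authors called in this condition, 3259 of the 5988 islands in the 4 island lists of the series, and they came from 6 of its 55 samples (4 Lamin A/C and 2 H4K20me3 libraries). They were chosen by list alone, whatever their overlap. Each list was made by CUT&Tag, in which an antibody directs a transposase to the chromatin that carries its target, and an island is a run of enriched 20 kb windows with gaps of at most 20 kb.

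Setd8-LKO mice carry Setd8 lox/lox alleles and Alb-Cre, whose albumin promoter is active in hepatocytes, so that other cells of the liver keep the gene. They were male and 45 to 50 days old. They received 1 intraperitoneal dose of 3 mg/kg TCPOBOP 24 h before the liver was taken. TCPOBOP is an agonist of the nuclear receptor CAR that drives hepatocytes to divide. The wild type (WT) mice used for reference were of the same age and sex and are labelled untreated (the methods name a vehicle). Genotype and treatment therefore cannot be told apart between the groups compared here. The series also holds 5 RNA-seq libraries of WT given TCPOBOP, which were not used. Nuclei came from whole liver, in which, per the study, many of the treated Setd8-LKO hepatocytes die, and in such bulk samples fewer cells of a type and less signal per cell cannot be told apart. There was 1 island list per antibody and condition, which leaves no measure of the spread between mice, and whether the libraries were pooled before calling is not given in the sources used here. The island lists hold no read counts, so the depth behind each island is unknown, and the study gives only an average depth per assay. In the WT Lamin A/C labels the replicate numbers 1 and 2 each appear on 2 libraries, so whether these are 4 mice is not clear.

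Lamin A/C, the product of Lmna, forms a meshwork under the inner nuclear membrane, and the long stretches of the genome that touch it are called lamina-associated domains. Such domains hold few genes, and most of these genes are silent. Setd8, also named Kmt5a, places the first methyl group on lysine 20 of histone H4, and Kmt5b and Kmt5c build the di- and trimethylated forms from it. H4K20me3 is a mark of constitutive heterochromatin, known from satellite repeats, telomeres, retroelements and zinc finger gene clusters.

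Each 20 kb window of the genome was placed in 1 of 4 classes, in islands of both lists, of Lamin A/C alone, of H4K20me3 alone or of neither. To show what the 3 marked kinds of chromatin look like, 200 bases from the middle of the longest region of each are given below, with CpG dinucleotides in capitals. They are plus strand sequence of RefSeq GRCm38, and none of them lies in an annotated gene. The first is from a 4.82 Mb stretch in both lists (chr8:98409901-98410100), the next from a 1.62 Mb Lamin A/C island free of H4K20me3 (chr11:25429901-25430100), and the last from a 1.48 Mb H4K20me3 island free of Lamin A/C (chr4:153179901-153180100).
both: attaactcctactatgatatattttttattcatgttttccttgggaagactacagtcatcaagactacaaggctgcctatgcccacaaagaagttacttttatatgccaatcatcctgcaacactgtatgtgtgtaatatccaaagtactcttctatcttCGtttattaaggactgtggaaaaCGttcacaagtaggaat
Lamin A/C alone: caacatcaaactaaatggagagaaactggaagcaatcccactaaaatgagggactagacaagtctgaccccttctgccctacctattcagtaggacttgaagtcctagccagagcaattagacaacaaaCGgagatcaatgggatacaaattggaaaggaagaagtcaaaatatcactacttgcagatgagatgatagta
H4K20me3 alone: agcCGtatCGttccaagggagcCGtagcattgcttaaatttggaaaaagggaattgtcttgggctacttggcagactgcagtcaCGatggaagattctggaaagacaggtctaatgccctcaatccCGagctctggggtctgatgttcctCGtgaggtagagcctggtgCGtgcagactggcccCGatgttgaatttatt
The stretch from both lists has 2 CpGs and 35.5% G+C, and 23 of its bases lie in annotated repeats. The Lamin A/C sequence has 1 CpG and 41.0% G+C and is almost entirely repeat, with 195 such bases. The H4K20me3 sequence is the richest of the 3 in both respects, with 8 CpGs and 50.5% G+C, and has 0 repeat bases. The order of G+C content was the same over the whole classes, as given further on, but the orders of CpG and repeat content were not. Over the whole classes, repeats made up 42.29% of both, 31.76% of Lamin A/C alone and 45.64% of H4K20me3 alone. The 3 sequences are thus not typical of their classes in repeats.

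Most Lamin A/C chromatin in the Setd8-LKO liver also carried H4K20me3. Lamin A/C islands covered 757.6 Mb, or 27.8% of the chromosomes, and H4K20me3 islands covered 631.9 Mb, or 23.18%. Both marks were present on 498.3 Mb. This made up 65.78% of all Lamin A/C base pairs, 78.86% of the H4K20me3 base pairs and 55.92% of the 891.2 Mb in either list. Lamin A/C alone covered 259.3 Mb and H4K20me3 alone 133.6 Mb. By island, 805 of 1153 Lamin A/C islands (69.82%, 95% Clopper-Pearson interval 67.08 to 72.46) and 1074 of 2106 H4K20me3 islands (51.0%, 48.84 to 53.15) overlapped the other list by at least 1 window. These intervals cover the counting of islands only, since neighbouring islands of 1 list are not replicates.

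For comparison, the H4K20me3 islands were shifted 1000 times along each chromosome by random offsets, its ends joined into a circle, which keeps island lengths and spacing. The shifted lists gave 25.91% ± 1.775 (SD over shifts, range 21.35 to 33.47) of Lamin A/C base pairs in H4K20me3, so the measured share was 2.538 times the shifted mean. For H4K20me3 base pairs the shifted mean was 31.07% ± 2.128, with a highest value of 40.13%. By island, the shifted means were 48.79% ± 1.771 for Lamin A/C and 36.11% ± 1.353 for H4K20me3. In 0 of 1000 shifts did any of the 4 shares reach its measured value. Among islands at or above the median score per window of their list, however, 26.12% of H4K20me3 islands overlapped Lamin A/C, and 714 of 1000 shifts reached that share. In WT, the corresponding shares of base pairs were 72.55% of Lamin A/C and 86.03% of H4K20me3, at 2.472 times the shifted mean.

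The overlap was mostly of whole islands in 1 direction. Of the H4K20me3 islands, 772 (36.66%) lay wholly inside Lamin A/C islands and 1032 wholly outside, and the rest crossed a border. The islands outside were short, with a median of 60 kb against 220 kb for those wholly inside. Of the Lamin A/C islands, 177 (15.35%) were wholly covered by H4K20me3, 348 (30.18%) were free of it and 609 (52.82%) were covered over at least 50% of their length. A Lamin A/C island with H4K20me3 usually met a single H4K20me3 island (554 islands), while 163 met 2, 87 met 3 to 5 and 1 met 6. In 421 cases 1 island of each list met each other and no further island.

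Islands outside the other list differed in how far away they were. The median gap from an H4K20me3 island outside Lamin A/C to the nearest Lamin A/C island was 1270 kb, and 553 of 1002 (55.19%) were over 1 Mb away. The remaining 30 were on chromosomes 19 and Y, which had no Lamin A/C island. The 348 Lamin A/C islands free of H4K20me3 had a median gap of 290 kb, with 93 (26.72%) within 100 kb and 52 over 1 Mb away. A gap also depends on the number of islands in the other list, 1153 of Lamin A/C and 2106 of H4K20me3. No gaps after shifts are given, so the difference between the 2 medians is a description only.

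On every chromosome that had Lamin A/C islands, 18 autosomes and X, the share of their base pairs in H4K20me3 was above that of each of the 1000 shifts. The highest shares were on chromosomes 17 (82.35%), 14 (78.69%) and 6 (74.49%), and the lowest on X (47.88%) and on chromosomes 11 (52.74%), 13 (54.67%) and 2 (55.23%). Chromosome 6 had 73 Lamin A/C islands over 52.52 Mb and 131 H4K20me3 islands over 43.98 Mb, of which 39.12 Mb were shared, against a shifted share of 29.64% ± 7.667 of Lamin A/C base pairs. Over the 18 autosomes with Lamin A/C islands, the share of H4K20me3 base pairs in Lamin A/C ran from 69.26% on chromosome 13 to 90.18% on chromosome 1. Chromosomes with more Lamin A/C tended to have more H4K20me3. Across the 18 autosomes, the covered percentages had Pearson's r = 0.769 and Spearman's rho = 0.829 (0.71 and 0.788 without the 2 farthest), given as a description because all points come from the same 2 lists.

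Chromosomes X, 19 and Y stood apart. On X, 107 H4K20me3 islands covered 21.2 Mb but 21 Lamin A/C islands covered only 4.72 Mb, so 10.66% of H4K20me3 base pairs were in Lamin A/C, still above the shifted 2.872% ± 1.92. In WT this share was 23.67%. Chromosome 19, which is small and rich in genes, had 25 H4K20me3 islands over 2.38 Mb and 0 Lamin A/C islands, and Y had 5 over 0.42 Mb and 0.

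**Figure D1:**
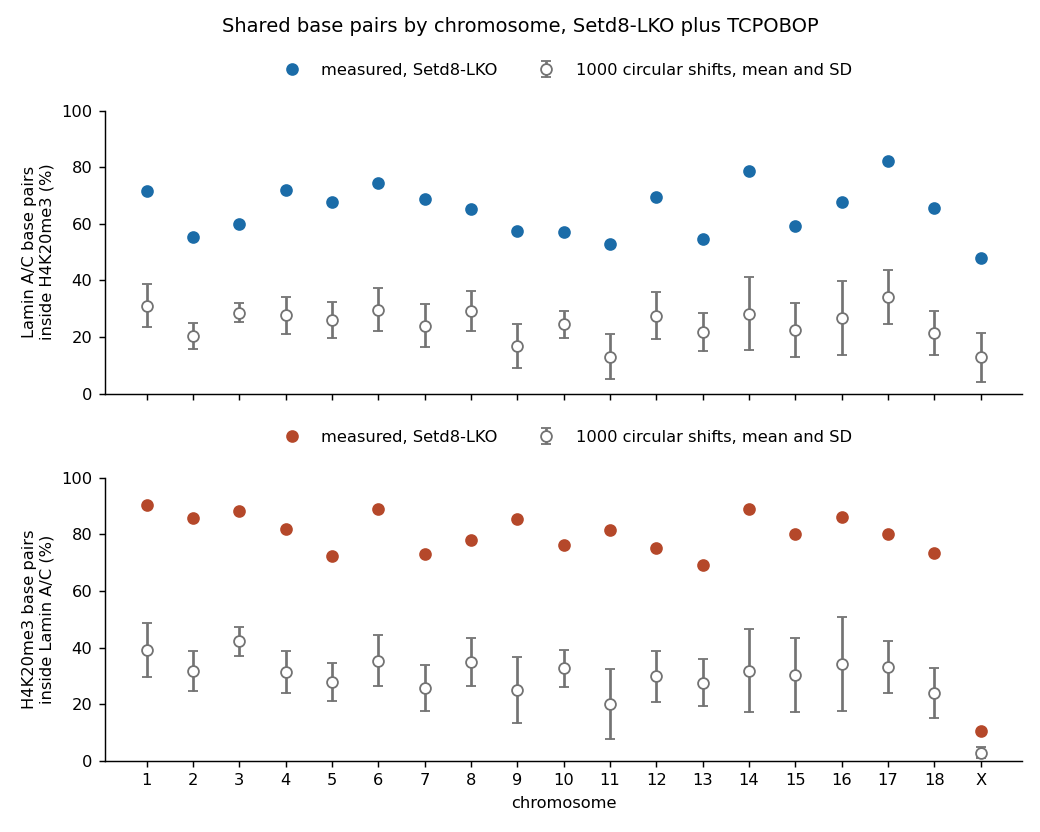
Shared base pairs by chromosome in Setd8-LKO plus TCPOBOP liver, in percent of the Lamin A/C base pairs and of the H4K20me3 base pairs of each chromosome, beside the mean of 1000 circular shifts with error bars of 1 SD over shifts. The measured share of Lamin A/C lies between 47.88% on X and 82.35% on chromosome 17, above the shifted mean on each of the 19 chromosomes with Lamin A/C islands, and the share of H4K20me3 drops to 10.66% on X.

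Length separated overlapping from other islands more than chromosome did. All 75 Lamin A/C islands of 2 Mb or longer overlapped H4K20me3, as did 148 of 152 (97.37%) of 1 to under 2 Mb and 214 of 257 (83.27%) of 500 to 980 kb. The share was lower at 200 to 480 kb (237 of 405, 58.52%) and at 100 to 180 kb (112 of 234, 47.86%), and it was 19 of 30 (63.33%) at 20 to 80 kb. Longer islands meet another list more often by length alone, and the shifted means rose from 28.37% in the shortest class to 82.04% in the longest. The share of base pairs has no such dependence, with shifted means from 24.11% to 27.29%, and it rose from 32.86% at 100 to 180 kb to 87.59% at 2 Mb or longer. The 30 islands of 20 to 80 kb did not follow that order, with 60.38% of their base pairs in H4K20me3. From 100 kb upwards, longer Lamin A/C islands were covered more completely, not only met more often.

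Short H4K20me3 islands went the other way. Of the 856 islands of 20 to 80 kb, 167 (19.51%) overlapped Lamin A/C, fewer than the shifted mean of 31.07% ± 1.774, and all 1000 shifts gave a share at least as high. The share then rose to 52.85% at 100 to 180 kb (shifted 33.42%), 77.44% at 200 to 480 kb, 90.53% at 500 to 980 kb, 95.83% at 1 to under 2 Mb and 100% of the 37 islands of 2 Mb or longer. By base pair the shortest class had 21.85% in Lamin A/C and the longest 98.45%. Of all H4K20me3 islands, 234 were a single window, and 24 of these (10.26%) overlapped Lamin A/C.

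**Figure D2:**
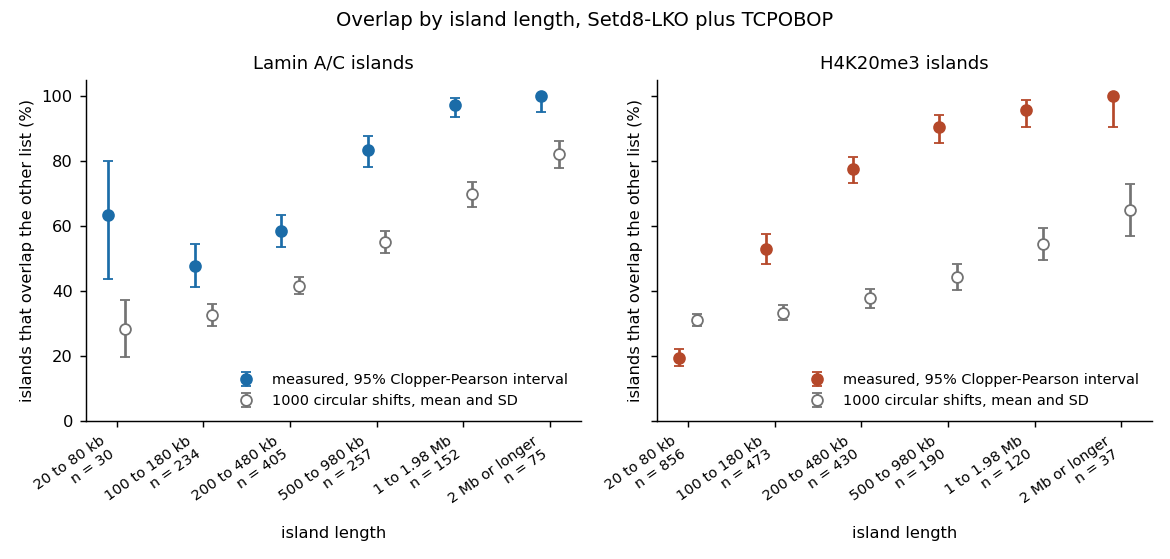
Percent of islands that overlap the other list, by island length from 20 to 80 kb up to 2 Mb or longer, for Lamin A/C islands and H4K20me3 islands, with 95% Clopper-Pearson intervals and the mean of 1000 circular shifts of each class. H4K20me3 islands of 20 to 80 kb (19.51%) lie below their shifted mean (31.07%), and both lists reach 100% at 2 Mb or longer.

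The border of a Lamin A/C island was not a sharp border of H4K20me3. In the first 20 kb inside Lamin A/C islands, 35.89% of 2304 windows were in an H4K20me3 island, at 80 to 100 kb 49.55%, and at 480 to 500 kb 82.82%. Only long islands reach that depth. Within the islands of 1 Mb or longer alone, which supply 454 windows at each distance, the share was 45.15% in the first 20 kb, 64.54% at 80 to 100 kb, 76.43% at 180 to 200 kb and 82.82% at 480 to 500 kb, so the rise was there with the same islands at each distance. Outside the border, the share over all islands fell from 21.53% in the first 20 kb to 13.38% at 80 to 100 kb and 8.511% at 480 to 500 kb.

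**Figure D3:**
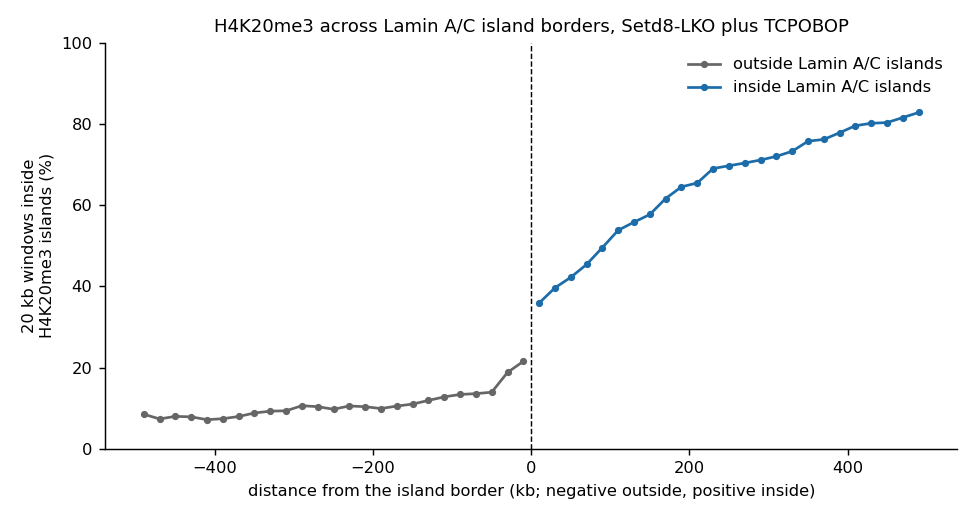
Percent of 20 kb windows in an H4K20me3 island by distance from the border of a Lamin A/C island, inside and outside, up to 500 kb. The share changes gradually over the border, from 21.53% just outside to 35.89% just inside, and reaches 82.82% at 480 to 500 kb inside.

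The strength of an island related to the overlap in opposite ways in the lists. SICER2 gives each island a score that sums the enrichment of its windows, and here it was divided by the number of windows. Ordered by this value, 43.4%, 55.9%, 81.6% and 98.27% of Lamin A/C islands overlapped H4K20me3 from the lowest to the highest 25% of the list. For H4K20me3 islands the same order gave 69.83%, 63.31%, 50.19% and 20.68% in Lamin A/C. Spearman's rho between the score per window and the covered share was 0.518 over 1153 Lamin A/C islands and -0.394 over 2106 H4K20me3 islands, as a description over islands that share libraries. A short island has to be strong to be called, since single windows had a score of at least 35.44, but the sign was the same inside each of the 6 length classes, with rho from 0.265 to 0.501 for Lamin A/C and from -0.338 to -0.111 for H4K20me3.

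The H4K20me3 islands with the highest score per window were short and mostly outside the lamina. Of the 10 highest, 1 overlapped Lamin A/C, and of the 100 highest, 8 did, against 10 of 10 and 98 of 100 for Lamin A/C. Of the 10 H4K20me3 islands, a single window on chromosome 8 (25120001 to 25140000) held no gene. The others held, among further genes, Plec and Eppk1, which encode cytoskeletal linker proteins of the plakin family, Fat1, an atypical cadherin, Spen, a transcriptional corepressor, Zfhx3, a transcription factor, and part of the gamma protocadherin cluster. The exception, 120 kb within Ttn, the gene of the giant muscle protein titin, was 50% in Lamin A/C. The highest score per window was 1000, and 3 islands had it, the single window on chromosome 8 among them, so these 3 have no order among themselves.

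The 4 classes of chromatin differed in features that were not used to define them. On assembled sequence, both marks covered 498.3 Mb (18.82%), Lamin A/C alone 259.2 Mb (9.792%), H4K20me3 alone 133.5 Mb (5.044%) and neither 1756 Mb (66.34%). H3K27ac, a mark of active promoters and enhancers, was all but absent where both marks were present, with 112 of 27741 peaks or 0.2248 per Mb. Lamin A/C alone had 1.477 peaks per Mb, H4K20me3 alone 4.194 and neither 15.19, so the density in neither was 67.59 times that in both. ATAC peaks, which mark accessible DNA, were spread in the same order, with 0.09633, 1.107, 3.827 and 12.83 per Mb and 48 of 23376 peaks in both.

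CTCF, which binds insulators and loop anchors, and the cohesin subunit Smc3 were less unevenly spread than the marks of activity. CTCF peaks had 1.345 per Mb in both, 2.419 in Lamin A/C alone, 3.999 in H4K20me3 alone and 10.84 in neither, a ratio of 8.064 between neither and both. Smc3 peaks had 0.6362, 2.152, 3.684 and 11.52 per Mb, a ratio of 18.11. The order was the same for the 50% of peaks with the higher fold enrichment in each of the 4 lists. By chromosome, both was the lowest class on 19 of 19 chromosomes for H3K27ac and ATAC, on 17 for CTCF and on 18 for Smc3. The peak lists are from the same condition and rest on 1 call each, so these densities are descriptions with no spread between mice.

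**Figure D4:**
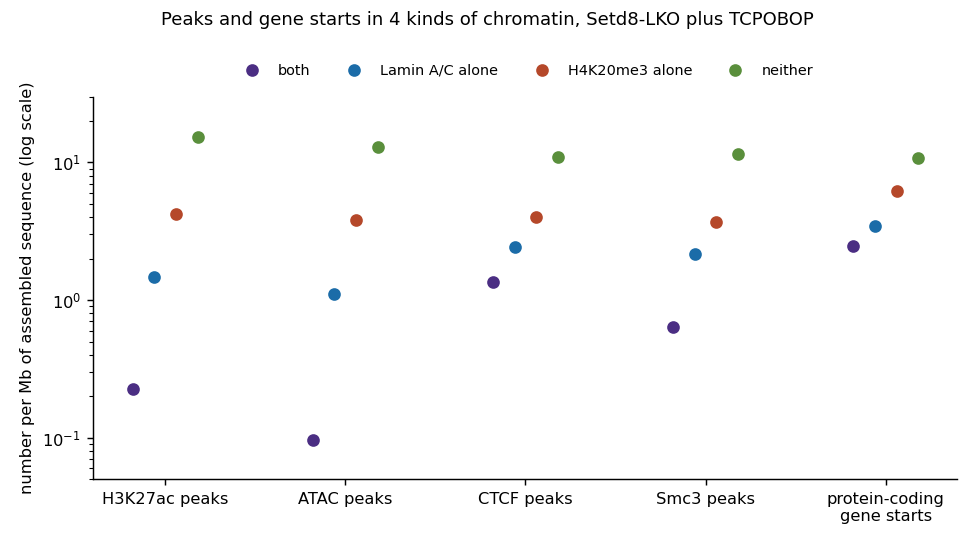
Density of H3K27ac, ATAC, CTCF and Smc3 peaks per Mb of assembled sequence (log axis) in the 4 classes of chromatin of Setd8-LKO plus TCPOBOP liver. For each kind of peak the density rises from both marks over Lamin A/C alone and H4K20me3 alone to neither, by 67.59 times for H3K27ac and 8.064 times for CTCF.

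Genes and base composition followed the same order. There were 2.482 gene starts per Mb in both, 3.425 in Lamin A/C alone, 6.23 in H4K20me3 alone and 10.81 in neither. G+C content was 38.06%, 39.58%, 41.38% and 43.02%, and CpG density 5.355, 6.399, 8.131 and 9.368 per kb. Repeats went another way, with 42.29% of the sequence in both, 31.76% in Lamin A/C alone, 45.64% in H4K20me3 alone and 34.7% in neither, so that repeat content went with H4K20me3 and not with the lamina. Both was the lowest class in G+C on 18 of 19 chromosomes. Genes that start in Lamin A/C chromatin alone were long (median 26.46 kb) beside those in both (6.748 kb), with 12.44 kb in H4K20me3 alone and 18.65 kb in neither.

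Within H4K20me3, the islands outside the lamina held more H3K27ac peaks per Mb than those overlapping it. They still held fewer than the 10.48 per Mb of all assembled sequence. Of the 689 islands of 20 to 80 kb outside Lamin A/C, 16.11% held an H3K27ac peak, at 6.91 peaks per Mb, against 3.593% and 0.7543 per Mb for the 167 of that length that overlapped Lamin A/C. For islands of 100 kb or longer, the 343 outside had 4.095 H3K27ac peaks per Mb and the 907 overlapping 0.2952. Even so, most H4K20me3 islands outside Lamin A/C held no H3K27ac peak. Lamin A/C islands with and without H4K20me3 differed less, with 0.555 and 1.288 peaks per Mb.

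Most chromatin with both marks had both in WT as well. By sequence, 96.66% of the chromatin of both was of both in untreated WT, while 35.11% of Lamin A/C alone was of both there and 28.94% of H4K20me3 alone was of neither. The 549 H4K20me3 islands that overlapped no WT H4K20me3 island lay mostly outside the lamina, with 52 (9.472%, interval 7.155 to 12.24) in contact with Lamin A/C, against 1022 of the 1557 (65.64%) also found in WT. The 549 covered 30.56 Mb and the 1557 covered 601.3 Mb, so the former were shorter on average. Short H4K20me3 islands of the whole list also overlapped Lamin A/C less often, and the part of length in this contrast was not tested. No test of a difference between genotypes was possible with 1 list each.

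The longest Lamin A/C islands were gene-poor and nearly filled with H4K20me3. The longest, of 5.38 Mb on chromosome 8 (95980001 to 101360000), was 93.31% covered and held the start of 1 protein-coding gene, Cdh8, a cadherin of the nervous system, with 0 H3K27ac peaks. The next, also on chromosome 8 (49180001 to 54060000, 4.88 Mb), was 71.31% covered and held Aga, a lysosomal enzyme, and Neil3, a DNA glycosylase. A 4.48 Mb island on chromosome 14 (79880001 to 84360000) was 98.21% covered and held Olfm4. The 2 others, both on chromosome 5, held Adgrl3, an adhesion receptor of neurons (77480001 to 81360000, 3.88 Mb, 89.18% covered), and G6pd2, an intronless relative of G6pdx (58340001 to 62200000, 3.86 Mb, 98.96% covered). Of the 5 longest stretches in both lists, 4 lay in these islands. There were 1170 stretches with a median of 220 kb, and the 132 of at least 1 Mb held 45.0% of the shared sequence. The 5 longest, up to 4.82 Mb, were also 100% in both lists in WT.

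Lamin A/C islands without H4K20me3 were shorter and some of them held families of genes. The longest, of 1.62 Mb on chromosome 11 (24620001 to 26240000), held 5730522E02Rik. On chromosome 4 (85020001 to 86360000, 1.34 Mb) they held Sh3gl2, which acts in synaptic vesicle uptake, and Adamtsl1. An island of 1.1 Mb on chromosome 10 (97400001 to 98500000) held the cluster of small leucine-rich proteoglycans of the extracellular matrix, Dcn, Lum, Kera and Epyc, and was 58.18% covered by H4K20me3 in WT. An island on chromosome 2 (65780001 to 66720000, 0.94 Mb) held the sodium channel genes Scn1a and Scn9a with Csrnp3, Galnt3 and Ttc21b. The remaining one, on chromosome 3 (142960001 to 144020000, 1.06 Mb), held the start of no protein-coding gene and was 62.26% covered by H4K20me3 in WT.

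Of the 5 longest H4K20me3 islands without Lamin A/C, 2 held zinc finger and vomeronasal receptor genes. Most such islands were shorter and held no gene start, which was found in 118 of the 689 of 20 to 80 kb and 151 of the 343 of 100 kb or longer. The highest total score of the list, 21670, belonged to a 1.3 Mb island on chromosome 17 (21760001 to 23060000) with 14 gene starts, among them Zfp820, Zfp758 and Zfp945 and the receptors Vmn2r111 to Vmn2r113. An island on chromosome 5 (108880001 to 110140000, 1.26 Mb) held Vmn2r10 to Vmn2r17, Zfp932 and Zfp605. The longest, on chromosome 4 (152440001 to 153920000, 1.48 Mb), had 49.56% G+C and held Nphp4, Kcnab2 and Ajap1, and 1 on chromosome 8 (117960001 to 119240000, 1.28 Mb) held Cdh13, an adiponectin-binding cadherin. The last of the 5, of 1.04 Mb on chromosome 12 (17820001 to 18860000), held 5730507C01Rik. In WT each of these was covered by H4K20me3 over 86.15% to 100% of its length. In the last assembled Mb, H4K20me3 was present on 16 of 20 chromosomes and Lamin A/C on 6, with mean covers of 28.6% and 20.6%. In the first assembled Mb they were present on 8 and 3, with mean covers of 8.1% and 10.8%.

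Gene families divided by class. Over all 21938 protein-coding genes, 1237 (5.64%) started in both, 888 (4.05%) in Lamin A/C alone, 832 (3.79%) in H4K20me3 alone and 18981 (86.5%) in neither. Olfactory receptors, which are silent outside sensory neurons, made up 47.86% of all genes that started in both, with 592 of 1135 (52.16%) there, 111 in Lamin A/C alone and 127 in H4K20me3 alone. They sit in clusters, and their clusters differed. On chromosome 2, 232 of 294 started in both and on chromosome 9, 104 of 132, while on chromosomes 11 and 19 it was 0 of 82 and 0 of 66. Vomeronasal receptors (Vmn1r and Vmn2r) had 110 of 329 in both and 75 in H4K20me3 alone.

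Other families were above or below that background. Killer cell lectin-like receptors (Klr, a cluster on chromosome 6) had 10 of 26 in both, defensins (Def) 15 of 64 and the protease inhibitors Serpina and Serpinb 8 of 50. Genes of neuronal adhesion and ion channels had 18 of 147 in both but 37 (25.17%) in Lamin A/C alone, where 4.05% of all genes were. By the class of most of the gene body, 29 (19.73%) were in both. Zinc finger genes (Zfp, Zkscan and Zscan) differed from the olfactory receptors, with 134 of 424 (31.6%) in H4K20me3 alone and 7 in both. Most of them, 282 (66.51%), were in neither. Of the clustered protocadherins, cell adhesion genes of neurons in a single cluster, 54 of 57 started in H4K20me3 alone and 0 in both, where 24 were in WT. Members of a cluster share windows and islands, so these counts are not of independent genes.

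Genes of liver function had shares in neither close to the 86.5% of all genes. Of the Cyp2 genes, which encode enzymes of drug and steroid oxidation, 43 of 49 (87.76%) were in neither, 0 were in Lamin A/C and 6 in H4K20me3 alone (Cyp2d9, Cyp2d12, Cyp2j11, Cyp2j12, Cyp2b23 and Cyp2e1). All 9 Cyp3a, 8 Cyp4a, 39 Hox, 53 keratin and 67 histone genes were in neither, as were 12 of 12 known targets of CAR and 18 of 18 genes of the lamina and of H4K20 methylation. Of the major urinary protein genes (Mup), 3 of 22 were in H4K20me3 alone (Mup3, Mup7 and Mup21), and of the Ugt genes Ugt8a was in Lamin A/C alone and Ugt2b37 in H4K20me3 alone.

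**Figure D5:**
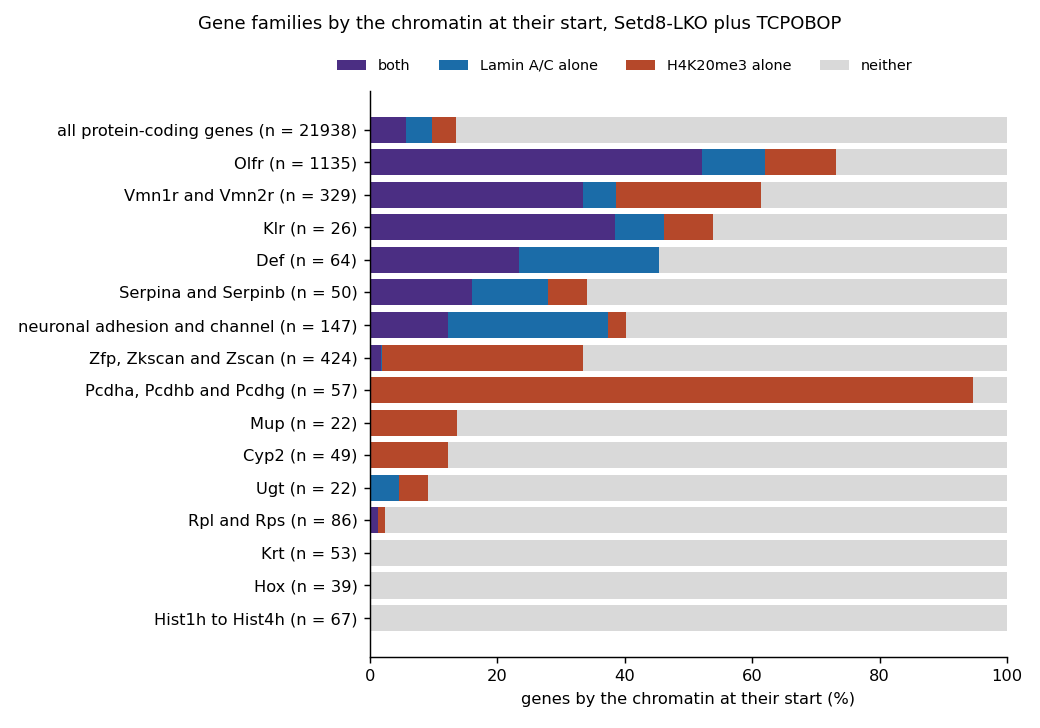
Percent of the protein-coding genes of each list that start in each of the 4 classes of chromatin, with the number of genes in each list and all 21938 genes for reference. Olfactory receptors have the largest number in both (592 of 1135), and clustered protocadherins (54 of 57) lie in H4K20me3 alone. Of the zinc finger genes, 134 of 424 lie in H4K20me3 alone and 282 in neither. The liver families Cyp2 (43 of 49) and Ugt (20 of 22) lie in neither at shares near that of all genes (86.5%).

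The labelled tissue was checked with markers of cell types. H3K27ac lay within 1 kb of the start of 10 of 12 hepatocyte markers, 2 of 4 each for endothelial cells, stellate cells and cholangiocytes, and 0 of 4 each for Kupffer cells and lymphocytes. The share over all protein-coding genes is not given here. Of the 12 hepatocyte markers, 11 started in neither and 1, Cyp2e1, an ethanol-oxidising cytochrome, in H4K20me3 alone. Its island on chromosome 7 (140740001 to 140820000) was short at 80 kb, low in score (38.32), without Lamin A/C, and held 10 H3K27ac peaks. In WT the start of Cyp2e1 was in neither. Among markers of other cells, Dcn of stellate cells started in Lamin A/C alone and the others in neither.

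RNA-seq of the same condition (4 libraries labelled Setd8-LKO plus TCPOBOP) was read against 5 of untreated WT. The deposited table lists only 3900 genes that the authors selected for a change in this same contrast, so neither the share of called genes nor its direction is independent evidence. The targeted gene, Kmt5a, had normalised counts of 1341, 1465, 1338 and 1313 for the Setd8-LKO label. In WT it had 613, 567, 761, 563 and 715, so its gene-level count was higher where the gene was to be deleted. Counts over the whole gene include exons outside the deleted one and all cell types, and do not check the deletion of 1 exon. Lmna was also higher, at 1914 ± 197 (SD, n = 4) against 807 ± 121.3 (n = 5), with a log2 fold change of 1.25 ± 0.15 (SE). Both genes started in neither list.

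Few genes that start under both marks were listed. Of the 1237 protein-coding genes, 30 (2.43%) were, against 11.1% for Lamin A/C alone, 7.45% for H4K20me3 alone and 14.7% for neither. With other biotypes 63 listed genes started in both, and 59 of these did so in WT too. Of the 63, 58 passed the filter on low counts, of which 40 (69.0%) were called higher and 14 (24.1%) lower in Setd8-LKO (edgeR quasi-likelihood test, Benjamini-Hochberg adjusted p under 0.05 over the listed genes and log2 fold change of at least 1). Over all 3726 listed genes tested, 58.5% were called higher and 39.5% lower. Some of the 40 are not separate loci. Gm8834 lies inside Gm18252 with nearly the same raw reads in Setd8-LKO (32924 and 32931). Gm9824 lies inside Gm30619 (11904 and 12096), and Gm17383 inside B020010K11Rik (9913 and 11203). Such entries were not merged. The groups did not overlap for 37 of the 40 and 13 of the 14. The libraries were sequenced in runs A (1 Setd8-LKO and 3 WT) and B (3 and 2). The direction was the same within run A for 40 of the 40 and 13 of the 14, and within run B for 40 and 14. The same counts over all listed genes are not given, and those genes were selected for a change in this contrast. Neither the separation nor the direction within runs therefore sets genes under both marks apart. With size factors computed over the listed genes, which lowers the median log2 fold change of all listed genes from 1.16 to 0.302, 17 were higher and 15 lower, beside 912 higher and 1527 lower over all listed genes. Under that scaling more listed genes fell than rose.

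The genes that were higher included cell cycle genes and genes known from neurons and myeloid cells. Vmn2r3, a vomeronasal receptor gene on chromosome 3 (64257215 to 64289709), had normalised counts of 71, 52, 118 and 107 in Setd8-LKO and 1, 1, 1, 0 and 0 in WT. With 3 reads in all of WT, the ratio was 133 with a 95% counting interval of 45.2 to 647. Mad2l1, of the spindle checkpoint, had 268, 276, 225 and 239 against 19, 35, 46, 26 and 59 (log2 fold change 2.77 ± 0.30 (SE), edgeR adjusted p = 9.56e-06). It had an H3K27ac peak at its start, and in WT that start was in Lamin A/C alone. Depdc1a, a mitotic gene, had 64, 56, 56 and 50 against 0, 0, 2, 2 and 4 (4.93 ± 0.51, and 5.57 without WT replicate 5), and Ccnb1-ps, a pseudogene of cyclin B1, had 124, 93, 171 and 116 against 0, 4, 2, 1 and 4. The libraries of Setd8-LKO were above all those of WT in each of these, as the rule for naming genes required.

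Epha5, an ephrin receptor of neurons, was the most abundant of the named genes that rose, with 817, 696, 560 and 793 against 103, 153, 125, 121 and 123 (log2 fold change 2.52 ± 0.17). Mmp12, a protease of macrophages, had 196, 164, 126 and 204 against 2, 3, 2, 26 and 3 (4.54 ± 0.63, and 6.05 without WT replicate 4). Casp12, an inflammatory caspase, had 247, 210, 53 and 109 against 22 to 37 (2.42 ± 0.41), with a wide spread within Setd8-LKO. Sirpb1a, a signal regulatory protein of myeloid cells, had 27, 34, 14 and 17 against 3 to 9 (2.24 ± 0.40). The predicted genes Gm7125 (3.94 ± 0.25) and Gm10800 (141 raw reads against 2, a ratio of 63.6 with a counting interval of 17.3 to 530) were higher as well. Vomeronasal and predicted genes and pseudogenes have near copies among which the counting could split reads, so their levels are uncertain.

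The genes that were lower included long neuronal genes. Trhde, which degrades thyrotropin-releasing hormone, had 3, 2, 3 and 2 against 74, 56, 58, 28 and 49 (log2 fold change -4.32 ± 0.38). Like Mad2l1, which rose, Trhde had an H3K27ac peak at its start, and in WT that start was in Lamin A/C alone. Ptprd, a receptor tyrosine phosphatase that spans 75941238 to 78211961 of chromosome 4, had 871, 948, 955 and 886 against 2487, 2061, 2405, 2081 and 2918 (-1.39 ± 0.15). Lsamp, a neuronal adhesion protein, had 28 to 36 against 62 to 106 (-1.28 ± 0.23). The vomeronasal receptor Vmn2r22 had 1, 5, 5 and 7 against 18, 19, 16, 23 and 10 (-2.02 ± 0.44). Gm5096 had the highest counts, 1116 to 3055 against 13977 to 26209 (-3.28 ± 0.35). The other 5 by the rule were AC161520.1, Gm28376, Gm7135, Gm19680 and 4933400C23Rik, with log2 fold changes from -3.10 to -1.29. Only genes whose groups did not overlap could be named, so the separation in these 10 was set by the rule. The 20 named genes kept their direction and call in the 295 alternative values that could be computed. These values refit the same libraries for the largest changes of a preselected table, so they are not independent evidence. In 5 cases the gene dropped below the filter on low counts or had no value, Gm10800 with size factors over the listed genes and AC161520.1 without WT replicate 1, 3, 4 or 5. The log2 fold change of AC161520.1 was -3.91 without Setd8-LKO replicate 3. With size factors over the listed genes, folds moved by over 1.5 times, to 1.67 for Epha5 and -2.19 for Ptprd.

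H3K27ac lay within 1 kb of the start of 7 of the 40 genes that were higher and 1 of the 14 that were lower. Most starts in either direction thus had no peak that near. The density over the whole class of both (0.2248 peaks per Mb) is in another unit and cannot be compared with these counts. The share over all genes that start in both is not given, so whether the called genes differ from it was not tested. Their starts lay a median of 70.0 kb and 65.85 kb from the edge of their doubly marked stretch. However, 11 of the 40 and 3 of the 14 lay under 20 kb from that edge, less than 1 window. Of the named genes, these include Depdc1a (4.57 kb), AC161520.1 (5.2 kb), Vmn2r22 (10.7 kb), Sirpb1a (13.5 kb) and Mmp12 (15.6 kb). Markers of cell types moved in the same libraries. The 6 of 12 hepatocyte markers that are listed summed to 565581 to 786171 normalised counts in Setd8-LKO and 1384241 to 2107013 in WT. The 4 of 4 listed cholangiocyte markers summed to 358 to 823 against 147 to 197, and Dcn, the 1 listed stellate marker of 4, to 2996 to 4967 against 1517 to 1749. Kupffer, endothelial and lymphocyte markers were not listed. The part of these shifts in the genes above was not tested.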

How the data were processed

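ATAC-seq, ChIP-seq, CUT&Tag and RNA-seq of mouse liver were used as deposited. For the chromatin assays the authors trimmed reads with Trimmomatic 0.39, mapped them to mm10 with HISAT2 and removed duplicates and blacklisted regions, and they reduced ChIP and CUT&Tag samples to the read number of the smallest. RNA-seq reads were cleaned with PRINSEQ, mapped to mm10 with HISAT2 and counted with metaseqR. They called Lamin A/C and H4K20me3 islands with SICER2 (20 kb windows, 20 kb gaps), and each deposited island carries a SICER2 score. Peaks of H3K27ac, ATAC, CTCF and Smc3 were called with MACS2 2.2.7.1 at p 1e-13, and the deposited lists give a fold enrichment per peak. The deposited RNA-seq table gives raw and normalised counts per gene. The authors' comparison columns (fold changes, p-values and FDR) and 54 transformed per-library columns were not used.

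Overlaps, shifts, classes and gene starts were computed with Python 3.11.15 and pandas 2.3.3 on the RefSeq genome of GRCm38 (the same assembly as mm10), and RNA counts were fitted with edgeR 4.0.16 (R 4.3.3) with the authors' scaling, recovered from the ratio of raw to normalised counts, for genes with a minimum count of 10 on a scale of 40000000 reads. P-values were adjusted over the genes tested, since the number the authors tested was not taken from their FDR column. The fit recovered 189 of 200 changed genes (94.5%, log2 change 2, 3222 genes) on simulated data, and the overlap script 90 of 90 planted overlaps. Islands are named as the 5 longest of each kind. RNA genes are the 10 called higher and 10 called lower with the largest change among those whose groups did not overlap. This left out Gm29020, called lower with a log2 fold change of -1.49 but higher in Setd8-LKO within run A. Members, lists and tests were chosen with earlier results of these data known. The study calls the RNA-seq libraries biological replicates. Intervals cover counting error only.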

Additional observations from a re-analysis of the deposited data

Results flagged for a closer look

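The normalised count of Mmp12 in WT replicate 4 was 26, while the 4 other WT libraries had 2 to 3. The gap to the nearest library was 0.958 of the range of the group, above Dixon's critical value of 0.71 for 5 samples. It was 1 of 44 groups tested, and chance alone marks about 1 in 20. Mmp12 was lower in that library than in any library of Setd8-LKO, as the rule for naming genes required. Without it, the log2 fold change of Mmp12 was 6.05 in place of 4.54.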

How the results depend on the processing

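The 4 shares of overlap were recomputed under 26 alternative values, of which 25 stayed above the mean of the shifted lists. With islands at or above the median score of their list, 77.99% of Lamin A/C islands and 67.59% of Lamin A/C base pairs were shared. With islands at or above the median score per window, these were 46.79% and 42.33%, H4K20me3 base pairs 71.23%, and H4K20me3 islands 26.12%, below the shifted mean of 26.96%, which 714 of 1000 shifts reached. With islands of at least 60 kb, 67.01% of Lamin A/C islands, 62.91% of H4K20me3 islands and 80.49% of H4K20me3 base pairs were shared. With islands at most 40 kb apart joined, the values were 72.92%, 48.3% and, for Lamin A/C base pairs, 66.29%. On autosomes alone, 81.28% of H4K20me3 base pairs were shared. With 25% or 50% of an island required, 63.14% and 52.82% of Lamin A/C islands counted, and with 50% of both islands of a pair, 37.47% of Lamin A/C and 20.51% of H4K20me3 islands. With 1 common offset for all chromosomes, 3 and 2 of 1000 shifts reached the shares of Lamin A/C and H4K20me3 islands. The cause of these moves was not tested, beyond the smaller or longer lists that each setting makes.

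Of the genes under both marks, 40 were called higher and 14 lower. DESeq2 size factors over the listed genes gave 17 higher, and assigning genes by their body gave 9 lower. Leaving out 1 replicate gave 37 to 43 higher and 10 to 16 lower. The replicate block gave 40 higher and 14 lower, and the shared numbers did not pair the samples (correlations of deviations from -0.155 to 0.0656, with 0 of 4 libraries closest to their own number). An adjustment over all 55413 annotated genes, chosen after seeing the data, gave 34 higher and 12 lower. Of 26 gene list shares under alternatives, 1 moved, that of neuronal genes (19.73% in both by gene body). The peak lists cut to 50% by fold enrichment changed 15 of 16 densities and left their order as it was. With 1 list per condition, the spread of any island value between mice is unknown, and the islands have no depth in the files used.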
